A study of Mus musculus with 12 samples.

Results

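DNA methylation was examined at 10 genes of the tau pathway in mouse brain. They were Mapt, which encodes tau, the kinase genes Gsk3a, Gsk3b, Cdk5, Mark1, Mark2, Mark4 and Dyrk1a, and Cdk5r1 and Cdk5r2, which encode the activator subunits of Cdk5. A cytosine belonged to a gene when it lay in a CpG of the gene body or of the 2000 bp upstream (GENCODE vM21 basic annotation, mm10 build) and was covered by 10 or more reads in at least 9 of the 12 libraries. This rule, which uses coverage and position but no methylation value, found 2011 of 1697436 cytosines. The strands of a CpG were counted apart, so that the 2011 cytosines came from 1164 CpGs. They ranged from 63 in Mark4 to 442 in Dyrk1a.

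The libraries were made by reduced representation bisulfite sequencing (RRBS) from a mixture of hippocampus and cortex of mice aged 11 months. RRBS sequences the fragments left by an enzyme that cuts at CCGG, so it covers CpG-rich DNA best, and the bisulfite step turns unmethylated cytosines into uracil. The methylation level is the percentage of reads at a cytosine that kept a C. The wild-type group (Wt) held 3 females and 1 library labelled male. The transgenic group (Tg) held 4 female and 4 male Tg2576 mice, which carry human amyloid precursor protein with the Swedish mutation under a prion protein promoter and are a model of amyloid deposition, without added human tau. The animals were bought as Tg2576 and Wt stock, and each tissue piece held all cell types of both regions, so a change in cell composition and a change within cells cannot be told apart. The tissue label has no marker in these data, and the transgene was not checked here.

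The library labelled Wt male went against its label. Its mean level on chromosome X was 19.9%, against 20.7% to 23.0% in the 7 libraries labelled female and 5.50% to 5.67% in the 4 Tg males. Results that rest on it are therefore given with and without it. Without it Wt held only females, so that a genotype test with labelled sex as covariate then compared the females alone, while the differences given for such fits still include the Tg males unless females are named. Total coverage ranged from 33619981 to 131446104 per library, and the median coverage at the tau and tau kinase cytosines from 22.0 to 58.0 reads. These are PCR reads without molecular identifiers, so intervals from them cover counting error only. Nothing beyond the label says how the animals were related. P-values of the binomial model used below rest on counting error alone. Those of the overdispersion model also rest on the spread between these libraries, but only where its estimate (the dispersion) is above 1. The median dispersion was 0.776 over the tau and tau kinase cytosines, so at most of them no such spread was added.

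Tau binds and stabilizes axonal microtubules, and phosphorylation by these kinases lowers its affinity for them. Gsk3 and Cdk5 are proline-directed kinases, the Mark kinases act on the repeats by which tau holds the microtubule, and Dyrk1a can prime tau for Gsk3. Methylation of CpGs is generally low at CpG-rich transcription starts and high elsewhere in the genome, and methylated starts are often silent.

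The DNA around 4 results is shown first. Mark2 has an upstream start in CpG-rich DNA and internal starts in CpG-poorer DNA, and their levels differed. The 250 bases before each of the starts in RefSeq (GRCm38.p6, minus strand, chr19:7341861-7342110 and chr19:7295448-7295697) are given with every CG in capitals.
Mark2 upstream start: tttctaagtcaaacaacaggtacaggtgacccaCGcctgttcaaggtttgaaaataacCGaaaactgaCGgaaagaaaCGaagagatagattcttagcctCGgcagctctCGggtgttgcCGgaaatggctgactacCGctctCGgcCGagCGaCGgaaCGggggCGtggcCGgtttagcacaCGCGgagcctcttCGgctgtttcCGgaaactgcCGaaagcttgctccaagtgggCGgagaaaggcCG
Mark2 internal start: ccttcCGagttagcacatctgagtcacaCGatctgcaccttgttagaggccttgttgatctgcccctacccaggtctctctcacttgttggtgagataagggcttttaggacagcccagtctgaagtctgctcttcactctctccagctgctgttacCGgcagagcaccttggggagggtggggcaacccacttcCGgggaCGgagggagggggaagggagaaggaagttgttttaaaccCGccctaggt
The next 3 windows are read from GRCm38 on the plus strand, with the CpGs that held a counted cytosine in capitals. The Mapt window (chr11:104310288-104310379) lies in a coding exon and holds cytosines of very different levels. The Cdk5r1 window (chr11:80479945-80479974) lies in the 3' UTR and holds 4 of the gene's 6 binomial calls. The Gsk3b window (chr16:38135432-38135505) lies in an intron and holds 1 of the 2 cytosines that were called whichever animal was left out.
Mapt coding exon: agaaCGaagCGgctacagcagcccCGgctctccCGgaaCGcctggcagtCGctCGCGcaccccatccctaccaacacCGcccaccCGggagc
Cdk5r1 3' UTR: CGaCGaCGtactcacagaggtggggaagCG
Gsk3b intron: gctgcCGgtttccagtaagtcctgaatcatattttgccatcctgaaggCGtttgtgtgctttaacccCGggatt

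Methylation near the transcription starts was low in all 10 genes when summed over a gene's cytosines covered in all 12 libraries, at 0 to 3.02% per animal, but not at every start. Within 1000 bp of a start, 1659 cytosines were counted and 98.6% of them had a level below 5%, pooled over animals. Summed per gene, the level near the start ran from 0.460% in Mapt to 1.95% in Mark2, with a median of 0.842% over the 10 genes, and 0.881% over the 13053 protein-coding genes with such a region. Over all 2011 cytosines, 89.1% had a level below 5%, against 71.6% of all 1697436. Only 24 (1.19%) had a level above 80%, against 10.1% of all. Of the 2011, 1659 lay near a start, while all 1697436 were not picked by place, so these shares are not like for like. In the rest of the genes, the median level was 12.6% over 7 genes, against 20.2% over 6591 protein-coding genes. The plot of level against distance shows mostly low levels around the starts, with higher ones behind the internal start of Mark2.

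**Figure D1:**
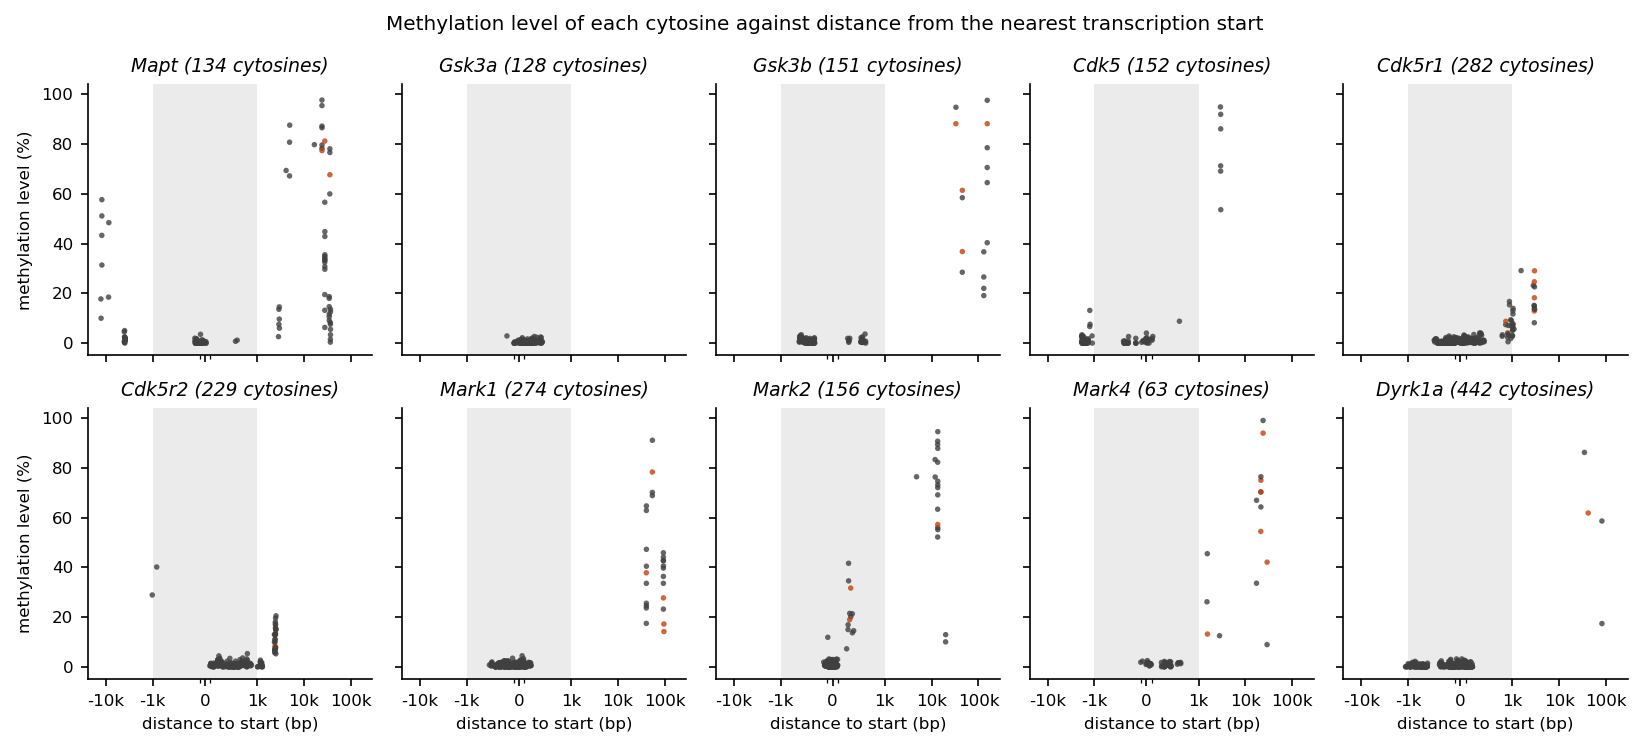
Methylation level pooled over 12 animals (y axis, %) of each cytosine against its signed distance in bp from the nearest annotated start of its gene (x axis, linear within 1000 bp and logarithmic beyond), 1 panel per gene. The grey band marks 1000 bp on either side, orange points are the 31 binomial calls, and 27 of these lie outside the band.

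Promoter sequences from RefSeq (GRCm38.p6, 250 bases before and 50 after a start) matched 6 of the 10 genes with 10 promoters. They held from 3 to 64 CG, both ends given by Dyrk1a and Mark1, against a median of 7 over 32851 promoters, 94.6% of which hold at least 1. CCGG, which like CG reads the same on both strands and contains it, was found in 8 of the 10, and in 52.8% of all promoters. Each of these 8 held counted cytosines, while the 2 promoters without CCGG, those of Gsk3b (21 CG) and of an internal Dyrk1a start (3 CG), held none.

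Mark2 was the gene whose starts differed among themselves. Its upstream promoter held 25 CG (more than 81.6% of the RefSeq promoters) and its internal one 7 (more than 47.9%). The 124 cytosines of the upstream stretch, shown above in part, had a mean level of 0.834%. The 12 cytosines in the 5' UTR behind the internal start, 269 to 404 bp after it, had a mean level of 21.4%, and ran from 7.22% to 41.6%. In Wt the level summed over 7 of them was 25.9%, 9.36% and 8.63% in the females and 12.01% in the library labelled Wt male. In Tg it ran from 3.45% to 26.6% with a median of 23.0%, so that the groups overlapped over nearly their whole range.

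Mapt (chr11:104231390-104332090, plus strand) held 134 cytosines in 15 stretches, where a stretch is a run of cytosines with gaps of at most 300 bp. The 49 cytosines at its first start had a mean level of 0.483%. A second unmethylated stretch of 24 cytosines lay in an intron, at -4053 to -3895 bp from the nearest annotated start, with a mean level of 1.69% and no value above 5.03%. Exonic DNA 24268 to 24337 bp after a start was methylated, with a mean level of 86.1% over 7 cytosines. The coding exon printed above held both kinds within 82 bp. Its 15 cytosines ran from 6.29% at base 87 of the window to 81.2% at base 11, while 10 cytosines between bases 39 and 79 lay between 29.7% and 44.8%. The lowest levels, at bases 87 (6.29%), 34 (13.2%) and 26 (19.5%), were all in CCGG, where the enzyme cuts. Whether the making of the libraries lowered them was not tested. In both groups the last cytosine had the lowest mean, at 7.26% ± 8.48 in Wt (SD, n = 4) and 7.26% ± 7.60 in Tg (SD, n = 8).

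Of the Gsk3 genes, Gsk3a (chr7:25228258-25237851, minus strand) was counted only at its start, where 128 cytosines had a mean level of 0.534%. Gsk3b (chr16:38089001-38246084, plus strand) had 135 cytosines near its starts (mean 0.798%) and 16 elsewhere (mean 57.04%). The latter lay in introns, a coding exon and the 3' UTR, where 6 cytosines had a mean level of 73.3%.

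Cdk5 (chr5:24418241-24423530, minus strand) had 45 cytosines near its starts, with a mean level of 1.04%. Of its other cytosines, 101 lay upstream in a stretch with a mean level of 0.959%, which overlaps the neighbouring gene Slc4a2. The 6 cytosines in coding exons 2921 to 2977 bp after a start had a mean level of 77.9%. The activator genes Cdk5r1 (chr11:80477023-80481184, plus strand) and Cdk5r2 (chr1:74854934-74857732, plus strand) are short, and their levels were lowest in the stretch nearest to the start. In Cdk5r1, the mean level was 0.823% over 243 cytosines around the start, 6.84% over 27 cytosines of the coding exon and 17.9% over 11 cytosines at the far end of the 3' UTR. A single cytosine in between, 1528 bp after the start in the 3' UTR, had 29.1%. In Cdk5r2, it was 0.92% over 200 cytosines from the start into the 3' UTR, and 11.9% over 27 cytosines farther down the 3' UTR, while 2 cytosines upstream had 34.5%. The latter gene overlaps Gm16582.

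Among the Mark genes, levels away from the starts were higher. Mark1 (chr1:184896789-184999570, minus strand) had a mean level of 0.675% over 248 cytosines at its start and 42.1% over 26 others. Mark2 (chr19:7275396-7341860, minus strand) reached 72.7% over 14 cytosines of an exon and its intron. Mark4 (chr7:19424775-19458821, minus strand) had a mean of 1.05% over 47 cytosines at its start and 53.3% over 16 in the gene body. Dyrk1a (chr16:94570010-94695517, plus strand) had 433 cytosines near its starts (mean 0.564%), and only 9 elsewhere.

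Whether the transgene went with a different level was tested per gene region, on reads summed per animal over the cytosines covered in all 12 libraries, with labelled sex as a covariate. A binomial model counts reads as the only source of error. An overdispersion model adds a spread between animals of the same group, estimated for each feature and used only where it exceeds counting error. The binomial model called 9 of 17 regions at an adjusted p under 0.1, 8 higher and 1 lower in Tg. It also called 49.4% of all 25318 gene regions (29.3% higher, 20.2% lower), with 49.5% near starts and 49.4% in the rest of genes, so that the share among the tau and tau kinase genes was near the background. With overdispersion, 0 of 17 regions were called, at a smallest adjusted p of 0.808, against 0.0118% of all regions. An unadjusted p under 0.05 was found for 1 region, against 5.93% of all. No region had Wt and Tg ranges that did not overlap, against 0.367% of all.

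The region with the unadjusted p under 0.05 was the start of Cdk5r1, which lies in DNA of very low level. In Wt the 181 cytosines had a level of 1.66%, 1.28% and 0.872% in the females and 1.06% in the library labelled Wt male. In Tg the level ran from 0.560% to 1.17% with a median of 0.851%. Of the Tg animals, 4 lay below every Wt library and 1 lay above the library labelled Wt male, so that the ranges overlapped. The means were 1.22% ± 0.339 in Wt (SD, n = 4) and 0.847% ± 0.199 in Tg (SD, n = 8). The overdispersion model gave an adjusted p of 0.808. Without the library labelled Wt male the read-weighted difference was -0.406 points, against -0.36 points with it.

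Away from a gene's own starts, the level was higher in Tg in 7 of 7 genes by the read-weighted difference, as in 3948 of 6591 protein-coding genes. In Cdk5, 101 of the 107 counted cytosines of this kind lay upstream, within 1000 bp of a start of another gene. The difference in Cdk5 was 0.215 points. Without the library labelled Wt male the difference was negative in Mark1 (-1.41 points) and Mark2 (-0.0238 points). The largest of these differences was in Cdk5r1, with 4.51 points over 20 cytosines. In Wt its level was 11.9%, 7.98% and 9.16% in the females and 9.33% in the library labelled Wt male. In Tg it ran from 8.45% to 21.9% with a median of 13.3%, and 5 of 8 animals lay above every Wt library. The binomial call of this region was lost without the library labelled Wt male. Among the females alone the difference was 0.706 points, at an adjusted p of 0.481 in the binomial model, and with the Tg males included it was 4.33 points.

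In Mapt, the rest of the gene had a level of 10.7%, 10.9% and 8.85% in the Wt females and 9.92% in the library labelled Wt male. In Tg it ran from 10.3% to 17.6% with a median of 13.0%, and 6 of 8 animals lay above every Wt library. The read-weighted difference was 2.66 points, and the overdispersion model gave an adjusted p of 0.846. The unweighted mean over the same 44 cytosines gave the opposite sign, -0.33 points, so the direction depends on the weight given to well-covered cytosines.

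In Cdk5r2, 2 Tg animals at 11.3% and 14.4% stood above the other 10 libraries, which ran from 0.735% to 6.41%. In Mark1 the difference was 3.17 points over 12 cytosines, and turned to -1.41 without the library labelled Wt male, which had the lowest level of all 12 (26.8%). The plot of region levels by animal shows these spreads.

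**Figure D2:**
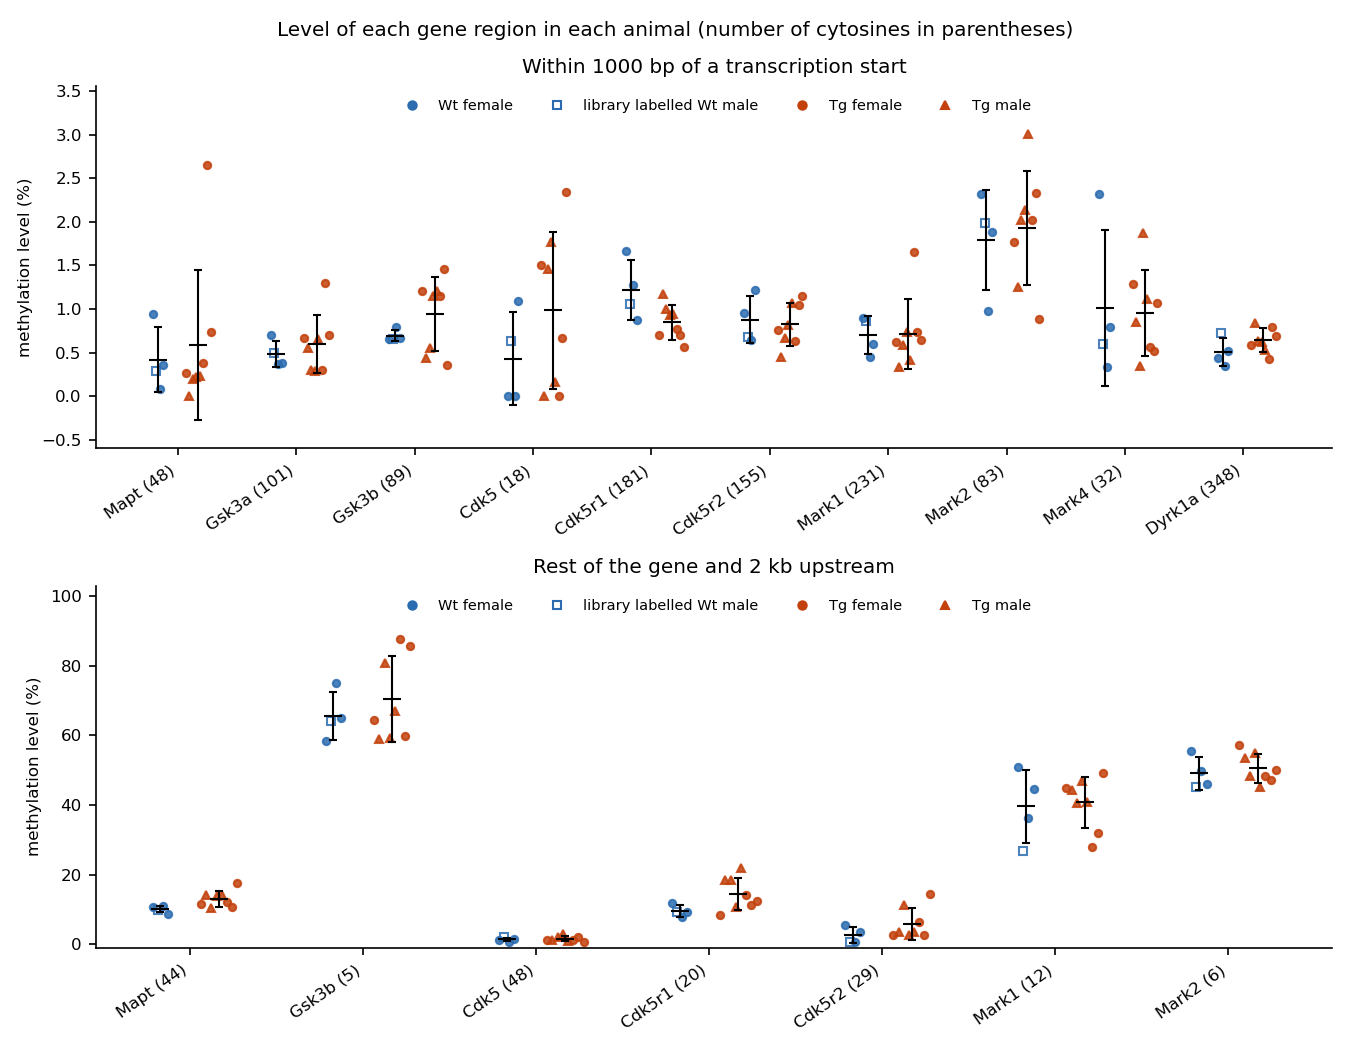
Methylation level (y axis, %) of each gene region in each animal, with Wt in blue and Tg in orange (circles female, triangles male, open squares the library labelled Wt male), and black bars for mean and SD. Near the starts (upper panel) all values lie between 0 and 3.02%, and in the rest of the genes (lower panel) Wt and Tg overlap in all 7 genes.

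Single cytosines were tested in the same way over all 1697436, and called at an adjusted p under 0.1 with a difference of at least 10 points. The binomial model called 31 of the 2011 (1.54%), 23 higher and 8 lower in Tg. It called 4.39% of all cytosines (2.39% higher, 2.0% lower). Of the 31 calls, 16 lay among the 100 cytosines with a level from 20% to 80%, and 14 of these were higher in Tg. Of all cytosines in this range 21.8% were called, and 13.0% were called higher. The overdispersion model called 0 of 2011 and 0.0% of all, at a smallest adjusted p of 0.512, and limma on the logit of the levels called none of the 1451 cytosines covered in all 12 libraries. An unadjusted p under 0.05 was found for 212 (10.5%), against 9.41% of all.

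The calls were unevenly spread over the genes. Mark4 had 6 of its 63 cytosines called, Cdk5r1 6 of 282, Mark1 5 of 274 and Gsk3b 4 of 151. Mapt had 3 of 134, Cdk5r2 3 of 229, Mark2 3 of 156 and Dyrk1a 1 of 442. Gsk3a (128 cytosines) and Cdk5 (152) had none. A call needed a difference of at least 10 points, and the genes differed in level. Below 5% lay 47 of the 63 cytosines of Mark4, against 438 of 442 in Dyrk1a, 142 of 152 in Cdk5 and all 128 in Gsk3a. Whether the counts of calls follow the levels was not tested. All 4 calls of Gsk3b and all 3 of Mapt and Mark2 were higher in Tg, while of all cytosines 2.39% were called higher and 2.0% lower. The opposite strand was tested for 18 called cytosines and differed in the same direction in 11 (61.1%), against 57.8% of all calls with a tested opposite strand. It was itself called in 4 (22.2%), against 19.7% of all such calls. Without the library labelled Wt male 24 cytosines were called, 10 of them higher in Tg, and 12 were shared with the 31. That fit called 3.68% of all cytosines. Only 2 of the 31 were called whichever animal was left out, and the matching share of all calls is not given here.

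**Figure D3:**
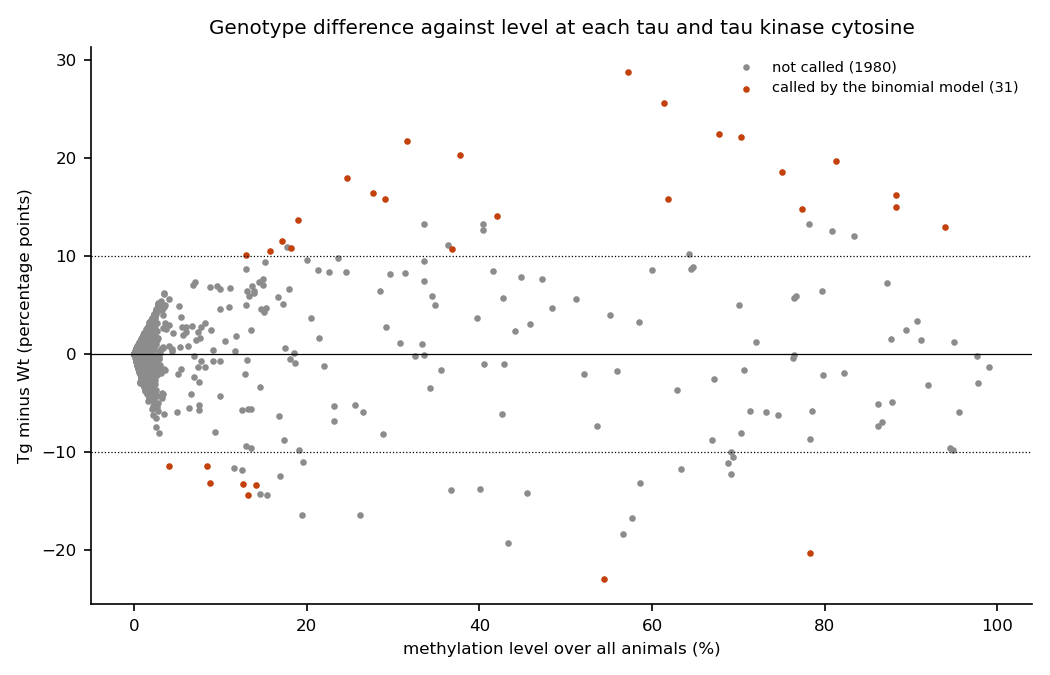
Difference of the read-weighted levels, Tg minus Wt (y axis, percentage points), against the level over all animals (x axis, %) for the 2011 cytosines. Dotted lines mark 10 points, and the 31 orange points are the binomial calls, 23 above and 8 below 0.

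The first of these 2 cytosines lies in the Gsk3b intron printed above, at base 50 of the window (minus strand). In Wt its level was 33.3%, 71.4% and 37.5% in the females and 44.4% in the library labelled Wt male. In Tg it ran from 50% to 92.9%. The Wt mean was 46.7% ± 17.1 (SD, n = 4) and the Tg mean 68.1% ± 15 (SD, n = 8), on 12 to 58 reads per animal. A Wt female lay among the higher Tg animals. The binomial model gave an adjusted p of 0.000754 and the overdispersion model 0.525. On the opposite strand of the same CpG the difference was 3.18 points (adjusted p = 0.469 in the binomial model).

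The second lies behind the internal start of Mark2 (chr19, position 7295100, minus strand, 5' UTR). In Wt its level was 27.3%, 14.0% and 20% in the females and 11.1% in the library labelled Wt male. In Tg it was 0 in 1 female, on 16 reads, and ran from 28.6% to 53.3% in the other 7 animals, all above Wt. The means were 18.1% ± 7.16 (SD, n = 4) and 36.6% ± 17.5 (SD, n = 8). The adjusted p was 0.00744 in the binomial and 0.525 in the overdispersion model. The opposite strand differed by 9.54 points in the same direction.

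In the Cdk5r1 3' UTR, neighbouring cytosines differed in the same direction. Of the 11 cytosines of this stretch, 10 had a higher level in Tg and 4 were called higher. The 30 bp printed above hold 4 CpGs, each counted on both strands. The 11 cytosines lie close together in the same animals, so they are not separate observations. Summed over 10 of them, the level in Wt was 18.4%, 9.42% and 15.9% in the females and 6.57% in the library labelled Wt male. In Tg it ran from 10.7% to 30.1% with a median of 24.0%, and 6 of 8 animals lay above every Wt library, while a female and a male lay at 10.7% and 10.9%. The means were 12.6% ± 5.49 (SD, n = 4) and 22.4% ± 8.04 (SD, n = 8), and the Wt females alone gave 14.6% ± 4.62. No test was made of the stretch, which was chosen for its calls.
At base 29 of the sequence printed above, the level was 25.5%, 11.4% and 29.1% in the Wt females and 13.3% in the library labelled Wt male. In Tg it ran from 12.5% to 50%. The difference was 15.8 points, at an adjusted p of 0.00135 in the binomial and 0.525 in the overdispersion model. When the library labelled Wt male was left out, the difference was 11.8 points, and the call was lost. Among the females alone it was 11.7 points, at an adjusted p of 0.154 in the binomial model.

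In the Mapt exon printed above, only the cytosine at base 11 was called. Its level was 55.6%, 81.8% and 75% in the Wt females and 60% in the library labelled Wt male. In the 6 Tg animals that covered it, the level ran from 80% to 100%. The second Wt female lay above the lowest Tg animal, and the coverage was 10 to 30 reads. The difference was 19.7 points, at an adjusted p of 0.0248 in the binomial and 0.525 in the overdispersion model, and the call was lost without the library labelled Wt male (17.9 points) and without the third Tg female (17.8 points). The cytosine 5 bp before it, also on the minus strand, differed by -18.4 points. A further coding cytosine of Mapt (position 104318192, plus strand) differed by 22.4 points, with 1 Tg male at 20% and the other 6 Tg animals from 71.4% to 88.9%. Its call was lost without the first Wt female (20.1 points) and without the library labelled Wt male (18.3 points).

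**Figure D4:**
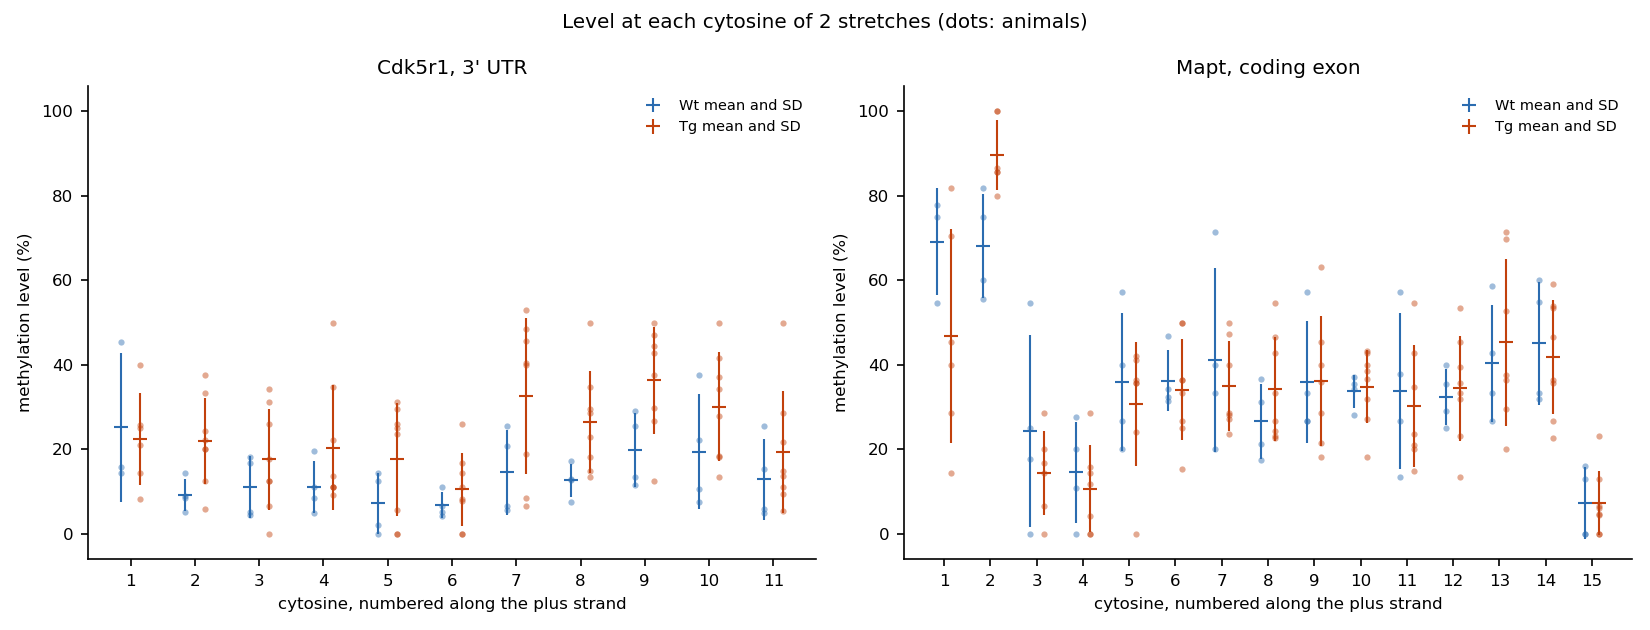
Methylation level (y axis, %) at each cytosine of the Cdk5r1 3' UTR stretch (11 cytosines) and of the Mapt coding exon (15 cytosines), numbered along the plus strand (x axis). Dots are animals and bars are mean and SD of Wt (blue) and Tg (orange). In Cdk5r1 the Tg mean is above the Wt mean at 10 of 11 cytosines, and in Mapt the only called cytosine is number 2, with Wt at 68.1% and Tg at 89.7%.

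The remaining named calls were in Gsk3b, Mark1 and Mark4. A second intronic cytosine of Gsk3b (position 38123249) differed by 16.1 points at a level of 88.2%, and its call was lost without the second Wt female (7.92 points), the first Tg female (15.7 points) or the second Tg female (15.5 points). In Mark1, a coding cytosine (position 184905440) differed by 16.3 points, and by 10.1 points without the library labelled Wt male. Among the females alone it differed by 6.67 points (adjusted p = 0.495 in the binomial model). An intronic one (position 184958887) differed by 20.3 points, and by 15.4 points without the first Wt female (adjusted p = 0.214 in the binomial model).
Mark4 gave a CpG whose strands went opposite ways (positions 19437582 and 19437583). The minus strand had a mean level of 53.9% ± 19.3 in Wt (SD, n = 4) and 78.2% ± 10.4 in Tg (SD, n = 5). The plus strand had 72.04% ± 7.67 in Wt (SD, n = 3) and 43.4% ± 26.8 in Tg (SD, n = 6). Both were called, and with the strands summed the difference was 3.58 points. The call on the minus strand was lost without the first Tg female (19.8 points), the library labelled Wt male (18.1 points) or the third Wt female (15.3 points).

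The call of Cdk5r1 at position 80477930 (coding exon) rested on 1 animal. The first Wt female had 16 methylated of 76 reads (21.1%, exact 95% interval 12.5% to 31.9%), and the other 10 libraries that covered it had none. Without that animal the difference was 0.

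**Figure D5:**
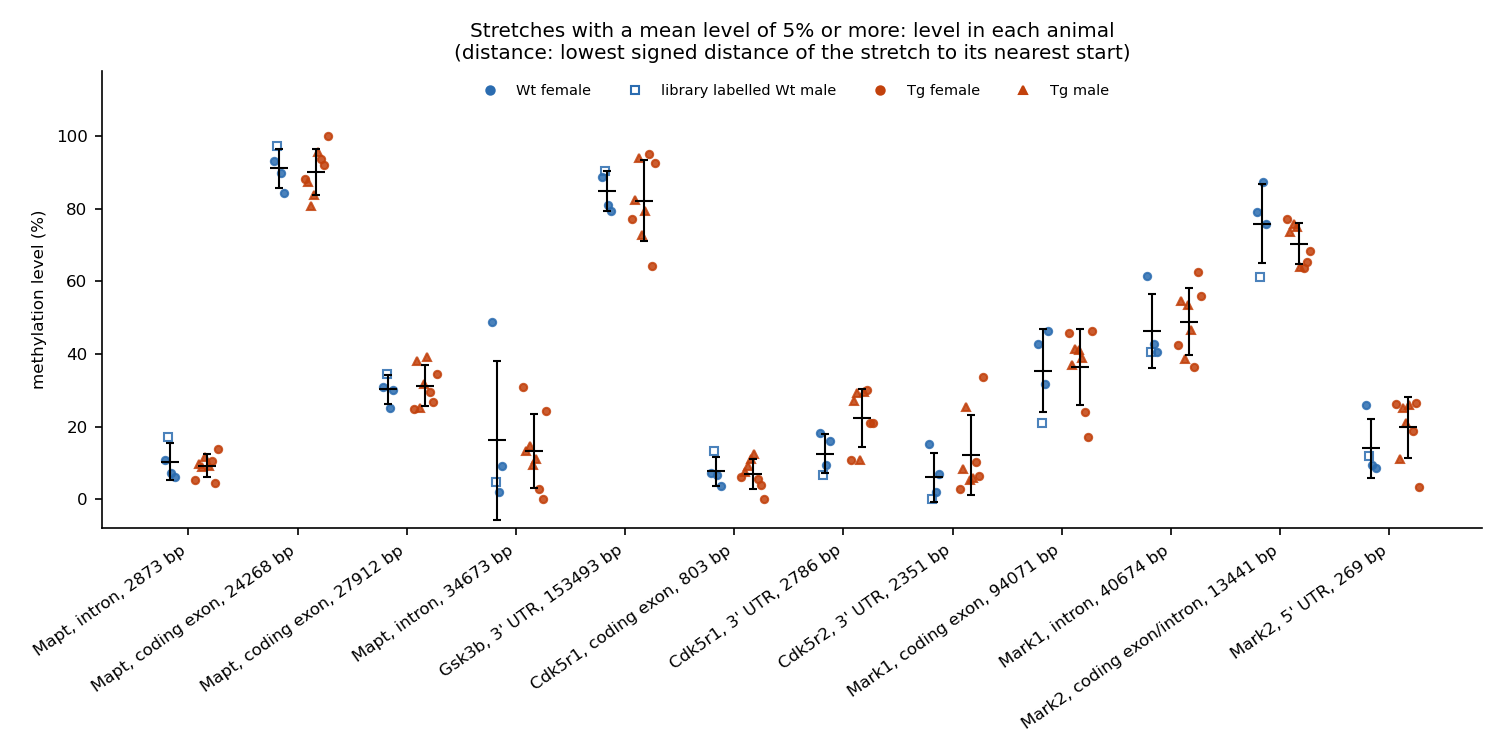
Methylation level (y axis, %) in each animal of the stretches with a mean level of at least 5% and 3 or more cytosines covered in all 12 libraries, with the gene, the place and the lowest signed distance to a start on the x axis. Symbols and bars are as in the plot of gene regions, and Wt and Tg overlap in every stretch.

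The smallest p-values of the overdispersion model came from cytosines near 0%. Of the 212 with an unadjusted p under 0.05, 206 had a level below 5%. Every Tg library was at 0 in 130 of them, and every Wt library in 62. Over all 2011 cytosines the order was the opposite, with 244 at 0 in every Tg library only and 572 at 0 in every Wt library only, where Tg had more libraries. For 9 of the 10 genes, the cytosine with the smallest p had 0 methylated reads in all Tg libraries that covered it, and methylated reads in 1 Wt library in 3 genes and in more in 6. The smallest p of all was at the start of Cdk5r1 (position 80477025), where the library labelled Wt male had 10 methylated of 60 reads (16.7%, exact 95% interval 8.29% to 28.5%) and the other 11 had none. At the Dyrk1a start (position 94569986) the same library had 9 of 109 reads (8.26%, exact 95% interval 3.85% to 15.1%) and the other 11 none. The estimated dispersion was 2.2e-22 at this Cdk5r1 cytosine and 2.1e-22 at this Dyrk1a cytosine. Both lie below the minimum of 1, so their p-values held no spread between animals. The first Wt female and the library labelled Wt male carried the Wt reads at the Mark1 start (position 184999536), with 7.55% and 14.3%. Without the library labelled Wt male, the number of cytosines with an unadjusted p under 0.05 was 113 of 2011. The share of all cytosines in that fit is not given here, so the drop cannot be called particular to these genes.

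At 1 cytosine, in the coding exon of Cdk5r2 (position 74855660, minus strand), the ranges of Wt and Tg did not overlap. That is 0.0497% of the 2011, against 0.25% of all. Its level was 2.70%, 9.09% and 8.79% in the Wt females and 3.45% in the library labelled Wt male, and 0 in all 8 Tg animals, on 16 to 118 reads. In the Tg animal with 16 reads, 0 methylated reads allow a level of up to 20.6% (exact 95% interval). The overdispersion model gave an adjusted p of 0.512. The opposite strand of this CpG had 1.25% ± 2.50 in Wt (SD, n = 4) and 5.03% ± 3.98 in Tg (SD, n = 8).

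Males and females were compared within Tg, since the library labelled Wt male leaves no test in Wt. Of 1947 cytosines covered in at least 3 animals of each sex, the binomial model called 28, 15 higher and 13 lower in males. It called 4.75% of all autosomal cytosines, 2.05% higher in males. The overdispersion model called 0 and 0.0% of all, at a smallest adjusted p of 0.671, and 85 (4.37%) had an unadjusted p under 0.05, against 4.99%. Leaving out the first Tg female gave 46 binomial calls, and the share of all cytosines called in that fit is not given here.
Cdk5r1 had 8 of the 28 calls, 7 of them higher in males, and Mapt 7. Some of the Cdk5r1 calls are close neighbours (such as positions 80478043, 80478055 and 80478056), so they are not separate observations. In the coding exon of Cdk5r1, 803 to 1079 bp after the start, the level over 14 cytosines was 5.99%, 5.49%, 3.79% and 0 in the Tg females and 7.43%, 9.12%, 11.1% and 12.5% in the Tg males, so that the sexes did not overlap. The Wt females had 7.30%, 6.60% and 3.61%, and the library labelled Wt male 13.2%. This stretch was chosen after its values were seen, and no test was made of it. The share of stretches in which the sexes do not overlap is not given here. Of the 31 cytosines called for genotype, 3 were also called for sex, and 1 of them lies in the Cdk5r1 3' UTR (position 80479948).

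A list of 42 further genes of tau handling, with other tau kinases, phosphatases such as the subunits of protein phosphatase PP2A, and microtubule-associated proteins, was described by its counts. Of its 5940 cytosines, the binomial model called 204 (3.43%), 127 higher and 77 lower in Tg, against 1.54% in the 10 genes and 4.39% of all cytosines. The share of cytosines with a level below 5% was 80.2% in the list, 89.1% in the 10 genes and 71.6% of all. The shares called are therefore not like for like. The overdispersion model called 0, and 573 (9.65%) had an unadjusted p under 0.05, against 9.41% of all. Of its 65 gene regions, 35 (53.8%) were called by the binomial model, against 49.4% of all regions. With overdispersion 0 were called, and 6 (9.23%) had an unadjusted p under 0.05, against 5.93% of all. Near the starts, the median level of the list was 0.809%, and the Tg minus Wt difference had a median of 0.0374 points, against 0.0813 points in the 10 genes and 0.0115 points in all protein-coding genes.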

How the data were processed

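Genomic DNA of 12 animals was analysed by RRBS. The authors deposited, per library, a table of coverage, methylated and unmethylated read counts per cytosine with at least 10 reads, made with Bismark and methylKit on mm10 according to the submitters' processing notes (versions not given in the sources used here). Duplicated positions (11) were dropped, and 99.9% of the positions lay in a CpG of GRCm38.

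Logistic regressions with labelled sex as covariate were fitted to the deposited counts of every cytosine covered in at least 9 libraries (Python 3.11.15, numpy 2.4.6, scipy 1.17.1), with a likelihood-ratio test (binomial model) or with a dispersion of at least 1 and an F test (overdispersion model). P-values were adjusted by Benjamini-Hochberg over all features. Gene regions needed at least 3 cytosines covered in all 12 libraries. Limma 3.58.1 (R 4.3.3) was an alternative. The code was tested on simulated data. Groups and sexes are those of the labels.

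All 10 genes were named. Cytosines were named by a rule: calls of the overdispersion model, then up to 10 binomial calls in order of the overdispersion p, with 1 in any 1000 bp, and the cytosine with the smallest such p in each gene. Others were chosen after their values were seen. The genes and lists were chosen with earlier results of these data known. Promoter sequences come from RefSeq (GRCm38.p6), which matched 6 of 10 genes. The list of 42 genes is described by counts.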

Additional observations from a re-analysis of the deposited data

Results flagged for a closer look

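In groups of 4 to 10 libraries, a value was looked at again when it stood far from the others by Dixon's 95% criterion. For normally distributed values, chance meets it in about 1 in 20 groups. Of 68 groups examined, from the gene regions and the named cytosines, 9 held such a value.

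Near the starts, the third Tg female stood apart in Mapt, at 2.65% against at most 0.732% in the other Tg animals. The same animal stood apart in Gsk3a, at 1.29% against at most 0.704%. In Mark1 the second Tg female had 1.65%, against at most 0.735% in the other Tg animals. In Gsk3b the second Wt female had 0.792%, with the other Wt libraries between 0.658% and 0.666%.

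Among single cytosines, the fourth Tg female had 0 at the Mark2 position 7295100 (the other Tg animals from 28.6%), and the third Tg male had 20% at the Mapt position 104318192 (the others from 71.4%). At near-0% cytosines, single Wt libraries carried all methylated reads. They were the third Wt female at the Cdk5 start (position 24423474, 10.8%), and the library labelled Wt male at the starts of Cdk5r1 (position 80477025, 16.7%) and Dyrk1a (position 94569986, 8.26%). With the other Wt libraries at 0, any such value meets the criterion. These cytosines were also named for the smallest p of their gene, so the rate of chance does not apply to them.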

How the results depend on the processing

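No paired analysis was made, because each library came from a different animal and the labels name no pairs. When all 12 libraries had to cover a cytosine (1451 tested), the binomial model called 10 in place of 31, and 1.72% of all cytosines. At a minimum of 20 reads it called 12 (1636 tested), and 1.85% of all. With libraries labelled female only it called 33 (15 higher in Tg), and 5.08% of all cytosines. Leaving out 1 animal gave 24 to 34 calls, and 3.68% to 5.35% of all cytosines. No gene region was called by the binomial model when a difference of at least 5 points was asked for (0 of 17). Of all regions 6.84% were called at that setting. Leaving out 1 animal gave 7 to 12 of the 17 regions, and 47.2% to 53.2% of all. For sex within Tg, 8 cytosines were called at a minimum of 20 reads and 9 when all 8 Tg libraries had to cover them. Leaving out 1 animal gave 27 to 46. For these sex fits no share of all cytosines is given here. The overdispersion model called 0 under every alternative run. In the other values, 561 kept their direction and call, 53 lost the call, 18 gained it and 31 changed direction.

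The differences that changed direction were all in gene regions, and the cause was not tested. With cytosines covered in at least 9 libraries they were 0.00034 points in Cdk5r2, -0.0473 in Cdk5 and 0.011 in Mark4 near the start, and -0.21 in Cdk5 and -0.075 in Mark2 in the rest of the gene. At a minimum of 20 reads they were 0.195 in Cdk5r2, -0.0933 in Mark1, -0.0141 in Gsk3a and -0.227 in Mark2 near the start. A start region of 2000 bp gave 0.0126 in Cdk5r2, and libraries labelled female only gave -3.03 in the rest of Mark1. Limma on unweighted means gave 0.00885 in Cdk5r2 and -0.048 in Mark1 near the start, and -0.33 in Mapt and -3.61 in Mark2 in the rest of the gene. Leaving out 1 animal gave, near the start, -0.223 to 0.487 in Mark4, -0.09995 to 0.0766 in Mark1, -0.144 to 0.253 in Mapt, -0.167 to 0.0351 in Cdk5r2 and -0.00665 to 0.149 in Gsk3a. In the rest of the gene it gave -0.132 to 6.55 in Gsk3b, -1.41 to 6.21 in Mark1, -0.0238 to 3.85 in Mark2 and -0.0155 to 0.468 in Cdk5. A call at a cytosine needed a difference of at least 10 points, so smaller ones were not called whatever their p. At 16 reads, 0 methylated reads allow a level of up to 20.6% (exact 95% interval).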
